A study of Homo sapiens with 6 samples.

Results

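Transcript levels of 9 membrane peptidase genes were examined: FOLH1, FAP, DPP4, ANPEP, ENPEP, MME, CPM, CPD and ECE1. They were chosen by gene name, and earlier results of these same libraries were known when they were chosen, in particular that FOLH1 rose while CPM and FAP fell. Of the 9 members, 8 were matched by name among the 27452 rows of the count table, and the transcript level of ENPEP was not analysed here. RNA sequencing had been done on total RNA from HepG2, by label an established line from a human liver tumour, grown in DMEM to which antibiotics and 10% fetal bovine serum were added. One group of 3 libraries carried a control short hairpin RNA (shRNA; label Ctrl shRNA), and the other group of 3 carried one against STAT3 (label STAT3 shRNA). STAT3 is a transcription factor that cytokine receptors activate through Janus kinases. The labels do not say how the shRNA was delivered, whether a line was 1 clone, or whether the libraries of a group came from separate cultures, so a p-value here speaks of variation from library to library, possibly technical, and differences between the lines that do not come from the shRNA cannot be told apart from its effect.

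Membrane peptidases are enzymes held at the cell surface or in membranes of the secretory pathway, where they trim or cut peptides. Many of them switch peptide hormones, kinins and chemokines on or off by removing 1 or a few residues. Most of these genes encode zinc metallopeptidases, whereas FAP and DPP4 encode serine peptidases that cut after proline. In liver and other epithelia several of these enzymes sit on the bile-facing or apical membrane, and ANPEP and DPP4 are known there as brush border enzymes.

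Levels are counts scaled to a library of 1000000 counts, written cpm in lower case since CPM is one of the genes, and a log2 fold change above 0 means a higher level with STAT3 shRNA, given ± SE. Library totals were 17408543 to 25862027 counts, so 0 counts in a library allow a level of up to 0.113 to 0.175 cpm, taking 3 counts as the limit and covering counting error only. STAT3 itself lay at 246.3 to 261.5 cpm in the control libraries and at 34.8 to 36.2 in the STAT3 shRNA libraries. The hepatocyte identity of the line was not visible in its markers: of 10 hepatocyte markers 5 had a row, 2 of these exceeded 3 counts in any library, and the summed level of the list was 0.817 to 2.16 cpm in the control and 0.981 to 1.38 in the STAT3 shRNA libraries. Albumin (ALB) had 0 counts in 4 of the 6 libraries. The libraries are therefore called by their labels here.

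Of the 8 members with a row, 5 had enough counts to be tested in the edgeR fit over 14999 genes. The false discovery rate (FDR) threshold of 0.05 was passed by FOLH1 (higher) and by CPM and FAP (lower), 3 of the 5, beside 17.5% of all tested genes (9.39% higher and 8.13% lower). In 4 of the 5 the control and STAT3 shRNA libraries did not overlap, beside 35.7% of all tested genes. Since the members were chosen on this contrast, these counts and the member values that follow are a description with no test. The filter on low counts kept FOLH1 and FAP only through the group where they are high, which favours calls among the 5. DPP4, ANPEP and MME, low in both groups, were left out of the 5.

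FOLH1 encodes glutamate carboxypeptidase II, also called prostate-specific membrane antigen, which removes glutamate from folate polyglutamates in the gut and from the neuropeptide N-acetylaspartylglutamate (NAAG) in the nervous system. It had 4, 3 and 3 counts in control libraries 1, 2 and 3, and 430, 337 and 321 counts in STAT3 shRNA libraries 1, 2 and 3. Scaled, the controls lay at 0.233, 0.160 and 0.158 cpm, and the libraries with STAT3 shRNA at 16.2, 16.6 and 17.5 cpm. The control values lay at about the level that a count of 0 would still allow, and the STAT3 shRNA values lay close together, far above all controls. The pooled counts, 10 against 1088, gave a scaled ratio of 91.4 with an exact 95% interval of 49.5 to 191 that covers counting error only. The fitted log2 fold change was 6.47 ± 0.208, which ranked 11 among the 14999 tested genes in the upward direction. In control libraries FOLH1 stood at the 0.563 percentile of mean level among tested genes, and in STAT3 shRNA libraries at the 43.7 percentile. FOLH1B, a near-identical copy of FOLH1, was not analysed here, and how the authors' counting assigned reads shared by both is not known, so the FOLH1 level is uncertain to that extent. No annotated gene of GENCODE 29 overlapped FOLH1.

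**Figure D1:**
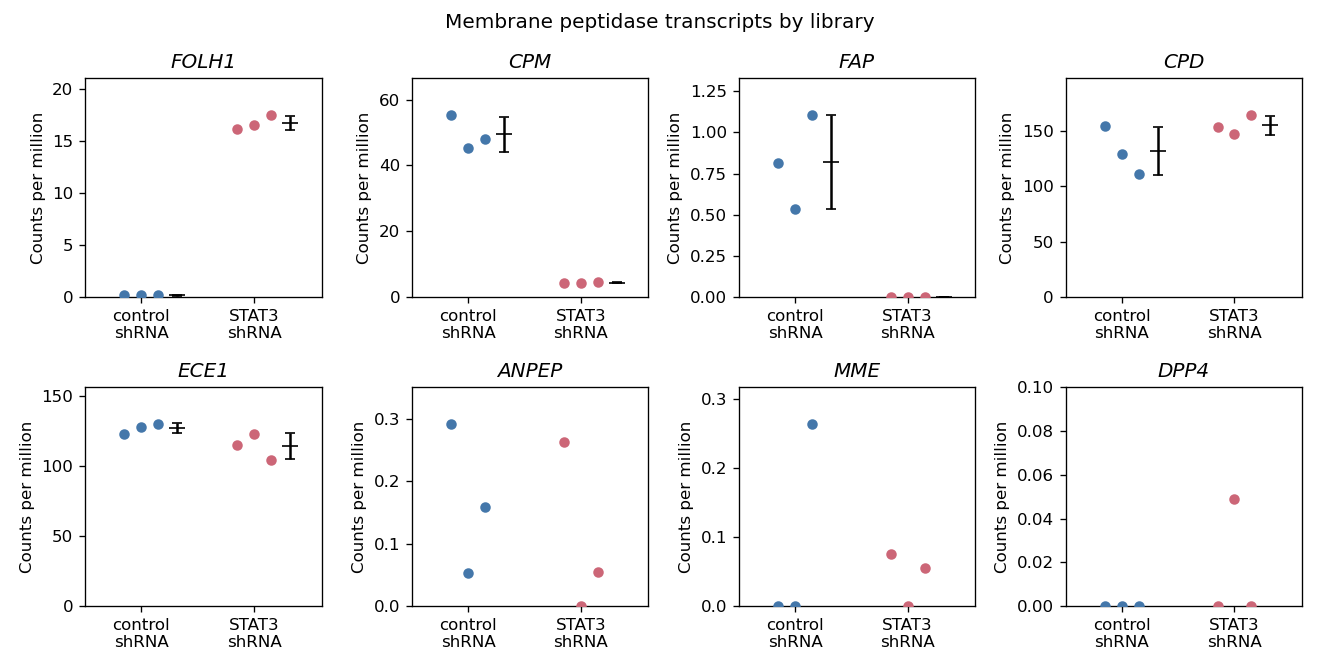
Level of each of the 8 membrane peptidase genes in cpm on the vertical axis, by group on the horizontal axis, with 1 point per library (blue control shRNA, red STAT3 shRNA) and, for the 5 tested genes, a bar for the mean ± SD of 3 libraries. FOLH1 lies at 16.2 to 17.5 in the STAT3 shRNA libraries against at most 0.233 in the controls, CPM and FAP lie higher in all controls, and the other 5 panels show small differences or levels near 0.

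CPM and CPD are carboxypeptidases of one family, which cut basic residues from the end of peptides. CPM encodes carboxypeptidase M, anchored to the outer membrane by a lipid, which removes the last arginine of kinins and anaphylatoxins. CPD encodes carboxypeptidase D, a transmembrane enzyme of the trans-Golgi network that trims peptides and growth factor precursors after they are cleaved. The table of RefSeq promoter windows (GRCh38.p14), 300 bases from 250 before to 50 after a start, held 17 windows for 7 members, since some genes have several starts. ENPEP is among these 7, and FOLH1 and FAP had no window. Windows of CPM and CPD are printed because one of these relatives was lower with STAT3 shRNA and the other was not, while both start in GC-rich sequence. The outermost starts are at chr12:68933150-68933449 (minus strand) for CPM and chr17:30378677-30378976 (plus strand) for CPD. Capitals mark GC boxes (GGGCGG or its reverse complement CCGCCC) and CCAAT boxes (CCAAT or ATTGG).
CPM: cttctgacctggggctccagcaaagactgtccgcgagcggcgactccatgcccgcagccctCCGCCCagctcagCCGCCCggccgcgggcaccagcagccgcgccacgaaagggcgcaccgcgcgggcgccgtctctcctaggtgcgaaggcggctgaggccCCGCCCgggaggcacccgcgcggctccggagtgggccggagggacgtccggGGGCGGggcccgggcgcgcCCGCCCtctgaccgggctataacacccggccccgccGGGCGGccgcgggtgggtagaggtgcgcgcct
CPD: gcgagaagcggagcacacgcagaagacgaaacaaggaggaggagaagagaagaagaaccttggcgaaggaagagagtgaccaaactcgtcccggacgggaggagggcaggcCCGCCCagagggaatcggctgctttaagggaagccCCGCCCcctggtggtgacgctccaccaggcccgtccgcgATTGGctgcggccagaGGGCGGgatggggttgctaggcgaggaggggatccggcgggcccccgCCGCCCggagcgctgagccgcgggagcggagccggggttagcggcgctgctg

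The CPM window held 6 GC boxes, no CCAAT box and 44 CpG dinucleotides, more than 95.8% of 35116 promoter windows hold. The CPD window held 4 GC boxes, 1 CCAAT box and 30 CpG dinucleotides, more than in 77.6% of windows. A GC box occurred in 45.0% of all windows and a CCAAT box in 34.6%. The paired half-site TTCNNNGAA that STAT factors bind, searched on both strands, occurred in neither of these windows and in 1 of the 17 member windows, at an inner start of ECE1, beside 7.66% of all windows. Of the other motifs searched on both strands, the AP-1 motif TGANTCA was in 1 member window (7.71% of all windows) and TATAAA in 1, that of ENPEP (11.5%). These are matches of letters in short windows and say nothing of binding.

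CPM was at 55.4, 45.2 and 47.9 cpm in control libraries 1, 2 and 3, and at 4.36, 4.37 and 4.53 in STAT3 shRNA libraries 1, 2 and 3. All controls were high and all STAT3 shRNA libraries low. The STAT3 shRNA values rest on only 116, 89 and 83 counts, so their small spread is not read as a result. The mean was 49.5 ± 5.27 (SD, n = 3) against 4.42 ± 0.0930 (SD, n = 3), 11.2-fold lower, for a log2 fold change of -3.48 ± 0.124, larger in size than that of STAT3 itself (-2.82 ± 0.0845). CPM overlaps MDM2, the ubiquitin ligase that restrains p53, on the opposite strand. The strand setting of the libraries is not given in the sources used here, so reads in the shared stretch cannot be told apart. MDM2 was at 84.7, 70.2 and 53.6 cpm in the controls and 77.4, 65.7 and 85.7 in the STAT3 shRNA libraries, which overlap (log2 fold change 0.14 ± 0.165, edgeR adjusted p = 0.617). A further 2 annotated genes with a row overlap CPM and did not pass the test: AC025423.2 had a mean of 2.21 ± 1.53 (SD, n = 3) against 5.08 ± 1.65 (SD, n = 3), and AC025423.4 had 0.919 ± 0.862 against 1.66 ± 0.672.

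CPD differed less between the groups than CPM. It lay at 154.7, 129.3 and 111.5 cpm in the controls and at 153.8, 147.3 and 164.5 in the STAT3 shRNA libraries. Control library 1 lay among the STAT3 shRNA values, so the groups overlapped. The log2 fold change was 0.24 ± 0.122, and CPD did not pass the FDR threshold. Without control library 1 it was 0.38 with CPD past the threshold. Divided by exon length, which allows genes to be compared, CPM made up 37.3%, 36.8% and 41.7% of the summed CPM and CPD level in the controls and 4.50%, 4.70% and 4.38% in the STAT3 shRNA libraries.

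FAP and DPP4 encode closely related serine peptidases and lie next to each other on chromosome 2. FAP, fibroblast activation protein, cuts gelatin and peptides after proline and is best known from stromal fibroblasts of tumours. It had 14, 10 and 21 counts in control libraries 1, 2 and 3, or 0.817, 0.534 and 1.11 cpm, and 0 counts in all 3 STAT3 shRNA libraries. The controls were thus low but clearly above 0, and against the limit of 3 counts per STAT3 shRNA library the level was at least 5.80-fold lower. DPP4, or CD26, which inactivates incretins and several chemokines, had 0 counts in all control libraries and 0, 1 and 0 in STAT3 shRNA libraries 1, 2 and 3. DPP4 was therefore not detectable at this depth in either group, and no fold is given.

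Genes beside FAP were lower as well. Of the 20 tested genes nearest to FAP in GENCODE 29 order, 10 on each side, 9 passed FDR 0.05 as lower and 2 as higher. This stands beside 8.13% lower and 9.39% higher of all tested genes. The median log2 fold change of the 20 was -0.57, against -0.01 over all tested genes. GCA, which encodes the calcium-binding protein grancalcin, was at 2.92, 2.94 and 2.69 cpm in the controls and 0.526, 0.393 and 0.600 in the STAT3 shRNA libraries (log2 fold change -2.48 ± 0.289, edgeR adjusted p = 0.000470). PSMD14, a deubiquitinase of the proteasome, was at 156.9, 153.4 and 151.9 against 99.1, 93.3 and 100.7 cpm (-0.66 ± 0.0801, edgeR adjusted p = 0.000588). Neither gene overlapped between groups, and both were chosen after their values were seen. The nearest tested genes on either side of FAP, AC009487.2 (1.17 ± 0.473) and the viral RNA sensor gene IFIH1 (-0.33 ± 0.144), did not pass the test. With 5 genes on each side 7 of 10 were lower and none higher, and with 20 on each side 19 of 40 were lower and 2 higher. Of the 11 called neighbours, 7 were left in number when either control library 2 or STAT3 shRNA library 3 was dropped, with medians of -0.57 in both cases. Whether the position of FAP has a part in its value was not tested. A segment of lower genes in this stretch of chromosome 2 had been noticed in earlier work on these libraries, so it is no independent support.

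The same count around FOLH1 gave 1 lower and no higher gene of 20 (median log2 fold change -0.06), and around CPM 3 higher and 1 lower (median 0.02). The nearest tested neighbours were PTPRJ (-0.19 ± 0.111) and TNKS1BP1 (-0.13 ± 0.154) for FOLH1, and CPSF6 (-0.01 ± 0.0923) on the far side of CPM. None of these 3 passed the test. Around CPD 3 of 20 were higher and none lower, and around ECE1 4 were higher and 3 lower. With 20 genes on each side, 4 of 40 were higher and 1 lower around CPD, and 6 higher and 9 lower around ECE1. Of all tested genes 17.5% were called (9.39% higher and 8.13% lower).

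**Figure D2:**
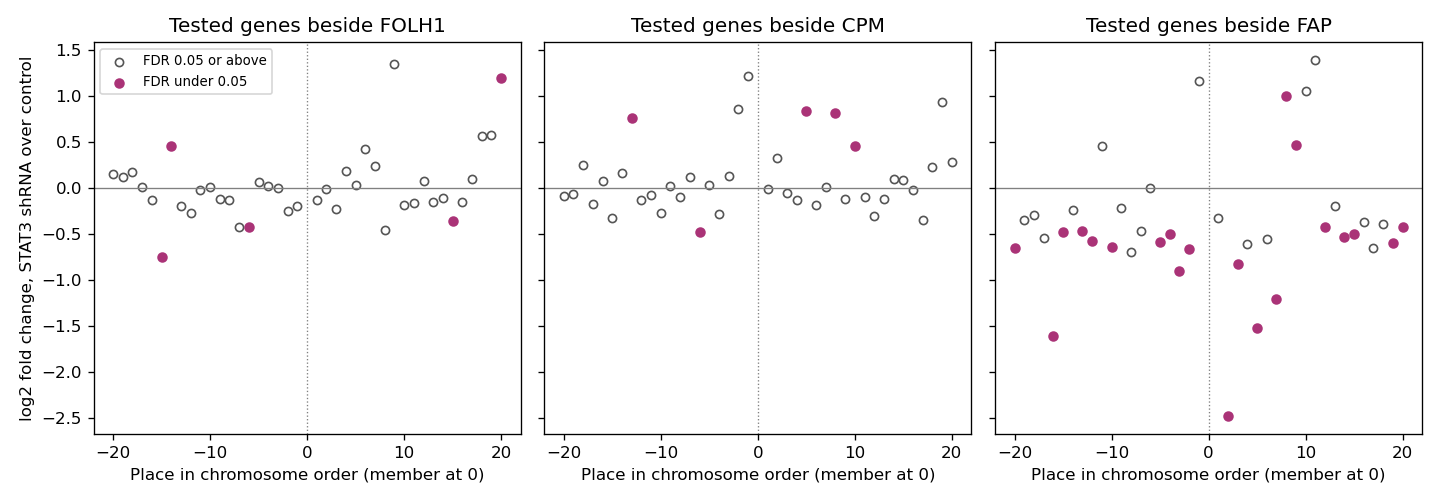
Log2 fold change of STAT3 shRNA over control shRNA (vertical axis) for the 20 tested genes on each side of FOLH1, CPM and FAP, by their place in chromosome order with the member at 0 (horizontal axis). Filled points passed FDR 0.05, as did 17.5% of all tested genes. Around FAP 19 of 40 points are filled and below 0 and 2 are filled and above 0, whereas around FOLH1 3 are lower and 2 higher and around CPM 1 is lower and 4 are higher.

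FAP and FOLH1 are also known from other cell types, so markers of those were summed. Of 8 fibroblast markers 6 had a row, all above 3 counts in some library, and their sum was 53.3 to 61.3 cpm in the controls and 36.1 to 38.0 in the STAT3 shRNA libraries. The called one was COL1A1, a collagen chain, at 38.3 to 43.5 against 14.3 to 16.5 cpm (-1.40 ± 0.108, edgeR adjusted p = 5.15e-05). DCN, a matrix proteoglycan, was at 11.9 ± 1.68 and 14.6 ± 0.765 cpm (SD, n = 3 per group) and PDGFRB at 4.82 ± 0.809 and 6.06 ± 0.674, neither past the threshold. COL3A1, LUM and THY1 were too low to test: COL3A1 had 2, 1 and 8 counts in the controls and 1, 0 and 0 with STAT3 shRNA, LUM 0, 0 and 2 against 7, 3 and 6, and THY1 2, 3 and 1 against 11, 13 and 9. Of 6 prostate markers 4 had a row, with sums of 8.75 to 10.2 in the controls and 12.6 to 13.6 in the STAT3 shRNA libraries, and TRPM8 had 0 counts in 5 of 6 libraries. Endothelial markers, 4 of 6 with a row, summed to 1.28 to 1.82 and 1.35 to 2.18, and leukocyte markers, 3 of 6 with a row, to at most 0.641. The part of these marker levels in the FAP and FOLH1 values was not tested. In bulk RNA fewer cells with a transcript and less of it per cell cannot be told apart.

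Of the aminopeptidases, which remove residues from the start of peptides, ANPEP, or aminopeptidase N (CD13), was near the floor in both groups. It had 5, 1 and 3 counts in the controls and 7, 0 and 1 in the STAT3 shRNA libraries. MME, or neprilysin (CD10), an endopeptidase that degrades natriuretic peptides, kinins and enkephalins, had 0, 0 and 5 counts and 2, 0 and 1 counts. These groups overlap, and at means at or under 3 counts per library no difference was detectable at this depth.

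ECE1, endothelin-converting enzyme 1, is a relative of MME that makes active endothelin from its precursor, and it was the most abundant member per length. It lay at 123.1, 127.6 and 130.0 cpm in control libraries 1, 2 and 3 and at 115.2, 122.9 and 104.4 in STAT3 shRNA libraries 1, 2 and 3. The groups just failed to overlap, with STAT3 shRNA library 2 only a little under control library 1. ECE1 did not pass the FDR threshold, and its log2 fold change of -0.15 ± 0.0900 stayed between -0.21 and -0.06 over the 12 alternative fits.

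Divided by exon length, ECE1 held 17.3 ± 0.475 cpm per kilobase in the controls (SD, n = 3), CPD 10.5 ± 1.73, CPM 6.57 ± 0.700, FAP 0.117 ± 0.0409, FOLH1 0.0481 ± 0.0112 and ANPEP 0.0344 ± 0.0245. FOLH1 and ANPEP overlapped in their ranges, whereas ECE1, CPD and CPM stood apart from one another in all 3 libraries. In the STAT3 shRNA libraries the order on the same scale was ECE1 at 15.6 ± 1.27, CPD at 12.4 ± 0.693, FOLH1 at 4.38 ± 0.181 and CPM at 0.586 ± 0.0123, each above the next in all 3 libraries. FOLH1 and CPM thus changed places. The summed level of the 8 members was 36.7, 33.8 and 33.2 in the controls and 32.9, 33.4 and 32.6 in the STAT3 shRNA libraries, which overlap, so the make-up differed more than the total.

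**Figure D3:**
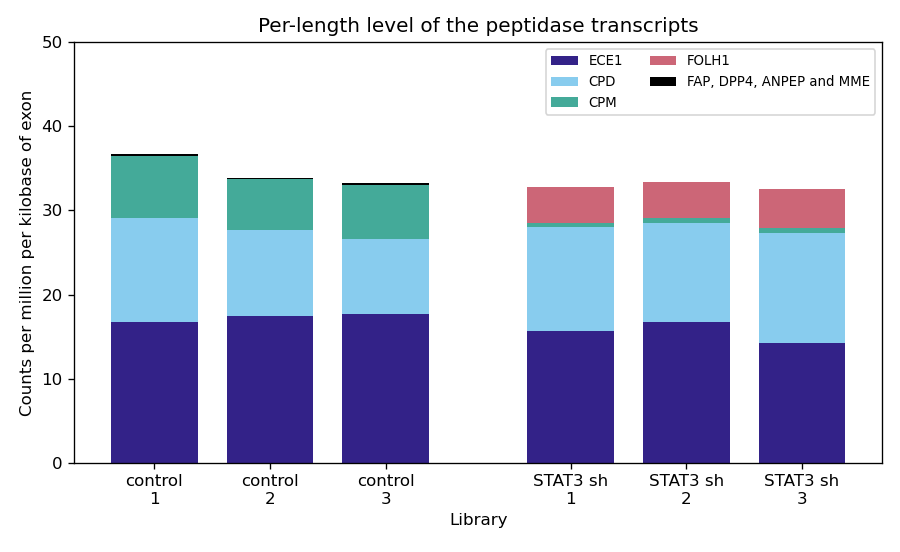
Level per kilobase of exon (vertical axis, cpm per kilobase) stacked by gene for each of the 6 libraries (horizontal axis), as 1 bar per library starting at 0. ECE1 and CPD fill most of every bar, the CPM part is broad in the controls and thin in the STAT3 shRNA libraries, the FOLH1 part is visible only in the latter, and bar heights range from 32.6 to 36.7.

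**Figure D4:**
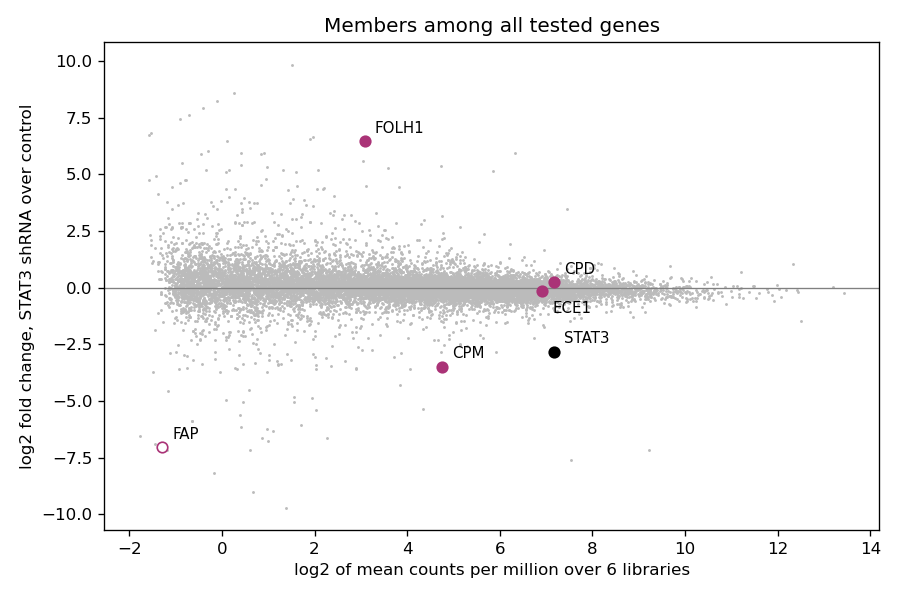
Log2 fold change (vertical axis) against log2 of the mean cpm over 6 libraries (horizontal axis) for the 14999 tested genes, with the 5 tested members in purple and STAT3 in black. FOLH1 at 6.47 (rank 11 upward) and CPM at -3.48 (rank 42 downward) lie far from 0, as do some other genes. CPD and ECE1 lie near 0, and the open FAP point is a fitted value against 0 counts whose size depends on the prior count.

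The profile over the 6 libraries most like that of FOLH1, by Euclidean distance between centred log2 values, was that of DPYSL3 (distance 0.703), followed by PELI2 (0.761) and PAGE1 (1.07). PELI2, which encodes a ubiquitin ligase of the Pellino family, had a mean of 0.0726 ± 0.0297 cpm in the controls and 7.46 ± 0.393 in the STAT3 shRNA libraries (SD, n = 3). For CPM the nearest were GALNTL6 (0.383), COL15A1 (0.433) and TNS4 (0.456). With 2 groups such likeness reflects mainly a change of like size.

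Other peptidases were then taken from lists made by gene family, with earlier results of these data known. Of 78 genes of these peptidase families, which include relatives not known as peptidases, 57 had a row and 32 were tested, of which 7 rose and 1 fell (17.5% of all tested genes were called), with a median log2 fold change of 0.07. CPA4, a carboxypeptidase of the same superfamily as CPM, lay at 5.13, 5.61 and 2.64 cpm in the controls and 19.7, 21.4 and 22.0 in the STAT3 shRNA libraries (2.24 ± 0.236, edgeR adjusted p = 0.000290). It rose while CPM was lower, and CPE, which trims prohormones, did not pass the test (-1.28 ± 0.400, edgeR adjusted p = 0.0577). CPE passed without control library 1 (edgeR adjusted p = 0.0382), as it did with no filter on low counts and by DESeq2. PHEX, the relative of MME and ECE1 that controls phosphate handling in bone, rose from 0.594 ± 0.294 to 4.06 ± 0.583 cpm (SD, n = 3 per group; 2.78 ± 0.340, edgeR adjusted p = 0.000594).

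Among relatives of ANPEP, 1 of 8 tested genes rose and none fell. It was ERAP1, the aminopeptidase of the endoplasmic reticulum that trims peptides for class I antigen presentation, at 14.5, 15.4 and 10.9 cpm in the controls and 36.5, 27.7 and 31.1 in the STAT3 shRNA libraries (1.23 ± 0.158, edgeR adjusted p = 0.000773). NPEPPS, the cytosolic puromycin-sensitive aminopeptidase, was at 179 ± 18.9 and 165 ± 3.51 and did not pass. RNPEPL1 was called lower when control library 1 was dropped, with no filter on low counts and by DESeq2. It was named after its values were seen. The 7 tested relatives of FAP and DPP4 gave no call, their log2 fold changes running from -0.36 to 0.22. Without control library 1, 2 of these passed as lower, DPP7 (-0.53, edgeR adjusted p = 0.0394) and APEH (-0.38, edgeR adjusted p = 0.0331), and 1 as higher, PREPL, named after its values were seen.

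Both tested relatives of FOLH1 rose, neither of which is known as a peptidase. The hepatic transferrin receptor gene TFR2 rose from 32.8 ± 2.91 to 50.9 ± 4.54 cpm (SD, n = 3 per group; 0.63 ± 0.110, edgeR adjusted p = 0.00411). TFRC, the transferrin receptor, rose from 816 ± 89.1 to 1096 ± 20.2 (0.43 ± 0.0961, edgeR adjusted p = 0.0152), which did not pass when STAT3 shRNA library 1 (adjusted p = 0.0625) or 3 (0.0752) was left out. NAALAD2, the closest other NAAG peptidase on the list, had 1 to 18 counts per library and was not tested.

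Of 3 tested ectopeptidases of other families, GGT5, a gamma-glutamyltransferase that converts leukotrienes, fell from 7.93, 10.1 and 10.0 cpm to 2.41, 2.31 and 2.02 (-2.05 ± 0.179, edgeR adjusted p = 0.000102). GGT7 (0.22 ± 0.171) did not pass. The table held 2 rows named GGT1, so its level is uncertain. The row with the identifier of the gene had 4, 11 and 0 counts in the controls and 33, 6 and 8 with STAT3 shRNA, too few to test, and the row with another identifier had 455, 1067 and 974 against 973, 1229 and 641. None of 4 tested membrane serine proteases passed, and ST14, or matriptase, at 0.81 ± 0.251 (edgeR adjusted p = 0.0554), passed without control library 3 (0.0313) and under 5 other settings. Of 5 tested ADAM genes, which shed the outer part of membrane proteins, ADAM10 (0.52 ± 0.131, edgeR adjusted p = 0.0250) and ADAM17 (0.45 ± 0.117, edgeR adjusted p = 0.0281) rose. Neither ADAM gene passed when control library 2 (adjusted p = 0.103 and 0.0684), STAT3 shRNA library 1 (0.107 and 0.120) or library 3 of that group (0.105 and 0.107) was dropped, and without STAT3 shRNA library 2 only that of ADAM10 remained.

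**Figure D5:**
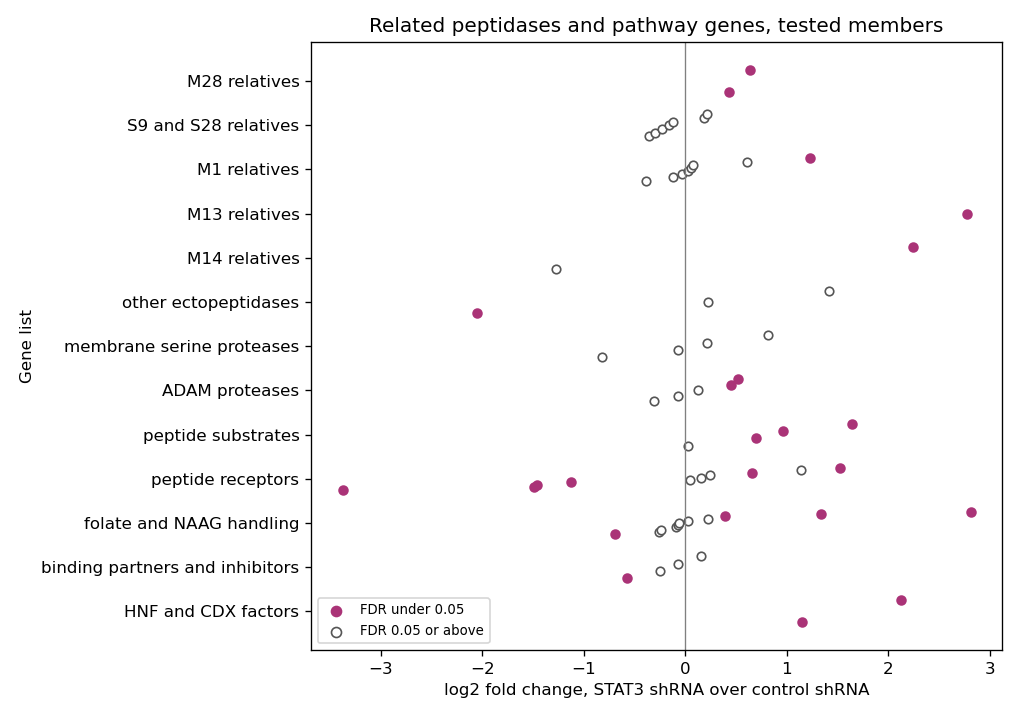
Log2 fold change of STAT3 shRNA over control shRNA (horizontal axis) for each tested gene of the 13 lists of related peptidases and pathway genes (vertical axis), with filled points for genes past FDR 0.05. Filled points lie on both sides of 0 among the peptide receptors, and relatives of FAP and DPP4 hold open points only.

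Genes for the substrates, receptors and partners of these enzymes came next. Of 75 such genes 53 had a row and 31 were tested, of which 10 rose and 6 fell (51.6% called, beside 17.5% of all tested genes), with a median log2 fold change of 0.04. Over family and pathway lists together 17 rose and 7 fell. Without STAT3 shRNA library 1 the 17 became 11, and without control library 1 the 7 became 11.

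The endothelin genes, whose products ECE1 processes, were higher while ECE1 differed little. EDN1 was at 12.3, 10.1 and 11.1 cpm in the controls and 22.9, 17.4 and 25.1 in the STAT3 shRNA libraries (0.96 ± 0.156, edgeR adjusted p = 0.00281). EDN2 rose from 0.947 ± 0.101 to 2.98 ± 0.619 (SD, n = 3 per group; 1.64 ± 0.274, edgeR adjusted p = 0.00325). The vasodilator gene ADM, a substrate of MME, also rose (0.70 ± 0.151, edgeR adjusted p = 0.0124), a call lost without STAT3 shRNA library 3 (adjusted p = 0.0630). In all, 3 of 4 tested substrate genes rose and none fell.

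Of 10 tested receptors 2 rose and 4 fell. BDKRB2, the B2 receptor of bradykinin, which CPM and MME cleave, was at 10.6, 10.0 and 12.3 cpm in the controls and 29.99, 32.7 and 31.95 in the STAT3 shRNA libraries (1.52 ± 0.116, edgeR adjusted p = 4.62e-05). NPR1, the natriuretic peptide receptor with a guanylate cyclase, fell from 115.0, 132.3 and 145.1 to 55.7, 66.2 and 57.3 cpm (-1.13 ± 0.114, edgeR adjusted p = 0.000219). ACKR3, a scavenging receptor for the DPP4 substrate CXCL12, fell (-1.49 ± 0.135, edgeR adjusted p = 0.000121), as did VIPR2, a receptor for vasoactive intestinal peptide (-1.47 ± 0.132, edgeR adjusted p = 0.000120). None of these 4 receptors overlapped between groups. The other calls were EDNRA, an endothelin receptor, which rose (0.66 ± 0.147, edgeR adjusted p = 0.0146), and NPR3, which clears natriuretic peptides and had only 2, 3 and 3 counts in STAT3 shRNA libraries 1, 2 and 3 (1.35 ± 0.437 against 0.129 ± 0.0471 cpm). Only 1 receptor was higher when control library 2 or STAT3 shRNA library 1 was dropped.

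Folate and NAAG genes around FOLH1 gave 3 higher of 11 tested. FOLR1, the folate receptor that takes folate up by endocytosis, rose from 5.25, 6.57 and 9.91 cpm to 20.2, 16.8 and 17.8 (1.33 ± 0.213, edgeR adjusted p = 0.00263). GGH, the lysosomal enzyme that like FOLH1 removes glutamates from folate, rose (0.39 ± 0.0888, edgeR adjusted p = 0.0165), and RIMKLA, a NAAG synthetase, was at 0.110 ± 0.107 and 0.803 ± 0.0826 cpm (SD, n = 3 per group; 2.81 ± 0.670, edgeR adjusted p = 0.0196). Of these 3 calls only that of FOLR1 held in all 12 alternative fits. GGH did not pass when control library 2 was dropped (adjusted p = 0.0999) or any 1 STAT3 shRNA library (0.0513 to 0.0859), and RIMKLA did not pass without any 1 STAT3 shRNA library (0.0503 to 0.0815).

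Among 4 binding partners and inhibitors, ADA, the adenosine deaminase that docks on DPP4, fell (-0.57 ± 0.114, edgeR adjusted p = 0.00830), a call lost without STAT3 shRNA library 1 (adjusted p = 0.0547), and CAV1 (0.16 ± 0.0954) did not pass. HNF4A, a hepatocyte and intestinal transcription factor known to act on ANPEP, rose. It lay at 1.46, 1.28 and 1.79 cpm in the controls and 7.22, 7.56 and 4.96 in the STAT3 shRNA libraries (2.12 ± 0.240, edgeR adjusted p = 0.000406). DPP4 and ANPEP stayed at or near 0 in the same libraries.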

How the data were processed

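Whole-number counts per gene for 6 libraries were used as deposited, unnormalized as far as the values show. Which aligner, counting program, strand setting and genome build the authors used is not given in the sources used here. Groups came from the titles, and members and lists were chosen with earlier results of these data known. Of 26420 Ensembl identifiers, 25992 were matched to GENCODE 29, used for gene order, overlaps and exon length.

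The fit was run with edgeR 4.0.16 under R 4.3.3: filterByExpr (minimum count 10, minimum total 15) left 14999 genes, with TMM scaling, a robust quasi-likelihood F test on group only, two-sided, and Benjamini-Hochberg adjustment over all genes at 0.05. Levels (cpm, counts scaled to 1000000) use the scaled library size. SE is the log2 fold change over the root of F. DESeq2 1.42.0, other scalings and filters, the block and each library left out were alternatives. The procedure was tested on simulated data. Libraries of a group differed far beyond sampling noise (4.20 to 43.0 chi-square per degree of freedom). Promoter windows came from RefSeq.

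Genes were named by rule: STAT3, the members, up to 4 called genes of each list with the smallest FDR (or the most abundant, to make 2), the nearest tested neighbours, and the 3 protein-coding genes most like FOLH1 and CPM, with log2 values on a prior of 2 counts. Some genes so picked are not reported here.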

Additional observations from a re-analysis of the deposited data

How the results depend on the processing

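FOLH1, CPM and STAT3 kept their direction and their side of the FDR threshold in all 12 alternative fits, as did FAP in the 11 that tested it (it was too low for the filter of 1 cpm in 3 libraries). The members were chosen on this contrast and the fits reuse the same 6 libraries, so for the members this is a description with no test. The log2 fold change ranged from 6.38 to 6.67 for FOLH1 and from -3.55 to -3.38 for CPM. None of the members, STAT3 and the 30 named companion genes changed sign; of the 10 named neighbours and overlapping genes, CPSF6 (-0.06 to 0.09) and MDM2 (-0.02 to 0.31), neither past the threshold, did so. Of 22 named companion genes past the threshold, 14 kept the call in all fits and 8 lost it in some. Leaving out 1 library in turn moved the genes higher from 1408 to between 796 and 2068 and those lower from 1219 to between 666 and 2030, the related genes higher from 17 to between 11 and 21 and lower from 7 to between 5 and 11, and the share of member neighbours called from 20.5% to between 11.8% and 31.7%. Leaving out control library 1 gave the highest and control library 2 or STAT3 shRNA library 1 or 3 the lowest of these. The member neighbours include those of ENPEP, and FAP itself as a neighbour of DPP4. Their 20.5% in the main fit stands beside 17.5% of all tested genes. Library totals in place of TMM scaling made 68.7% of called genes higher, against 53.6%. Whether the library numbers pair the libraries is not stated in the labels. Deviations from the group means correlated at 0.279, 0.191 and -0.227 for same-numbered libraries and at -0.461 to 0.333 for the others. With 3 libraries a group this cannot decide the question. With the replicate block 1210 genes were higher and 1068 lower, and 18 and 7 of the related genes. Transcripts at a few counts, such as DPP4, ANPEP and MME, are limited by depth.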
